A study of Mus musculus with 18 samples.

Results

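Expression of 10 genes of the unfolded protein response and the integrated stress response was followed in mouse embryonic stem (ES) cells that had lost the chromatin remodeller Snf2h. The genes were Atf4, Ddit3, Trib3, Asns, Chac1, Xbp1, Atf6, Hspa5, Dnajc3 and Herpud1, taken by symbol from a table of 24116 genes. All 10 were in the table, and all 10 were among the 14901 genes with enough counts to be tested.

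Unfolded proteins in the endoplasmic reticulum (ER) activate the sensors PERK, IRE1 and ATF6. PERK is also a kinase of the integrated stress response, whose kinases phosphorylate the initiation factor eIF2 and so slow protein synthesis while the ATF4 protein is made more efficiently. ATF4 then activates genes for amino acid supply, while IRE1 and ATF6 act through spliced Xbp1 mRNA and the cleaved ATF6 protein to raise ER chaperones. Counts per gene measure mRNA amount, so that neither eIF2 phosphorylation, Xbp1 splicing, ATF6 cleavage nor ATF4 translation was measured here.

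All cells were of the 129S6/SvEvTac background and were grown in serum with LIF, and polyadenylated RNA was sequenced. Snf2h, the product of Smarca5, is the ATPase of the ISWI remodelling complexes that space nucleosomes. The 18 libraries came from Snf2h knockout cells (ko, n = 5), from ko cells re-expressing wild-type Snf2h (wild-type add-back, n = 3), from ko cells re-expressing an ATPase mutant of it (mutant add-back, n = 2, replicates 1 and 3) and from wild-type cells (n = 8). The cells were kept on gelatin, except that the ko and the mutant add-back spent at least their first passages after thawing on embryonic fibroblast feeders, per the labels, which do not say how many clones each line stands for. Comparisons of ko or the mutant add-back with either other group thus also compare feeder history, whose part cannot be told apart from that of Snf2h. The labels call the replicates biological but do not say which came from separate cultures, so the p-values measure the spread between these libraries, part of which may be technical.

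Library totals ran from 15.3 to 36.98 M counts and formed 3 sets, which are not in the labels and were defined here from the totals. The low set held 11 libraries under 20 M (ko replicates 3 to 5, all add-backs and wild-type replicates 6 to 8). The middle set held 4 (ko and wild-type replicates 1 and 2), and the high set held the 3 over 30 M (wild-type replicates 3 to 5). The chi-square per gene between ko replicates was 1.79 to 2.53 within a set and 48.9 to 54.7 across sets, so the ko values of the 10 genes are given within the sets as well. Between wild-type replicates it was 31.0 to 68.5 across sets and 1.46 to 40.9 within a set. The highest values within a set were those of the high set, with 40.9 between replicates 3 and 4, 32.2 between 3 and 5 and 15.9 between 4 and 5, so the libraries of that set differed among themselves about as much as some did across sets. Smarca5 was at 8.71 to 10.1 CPM, counts for each M counts of the library, in ko, 83.8 to 90.2 in the wild-type add-back, 48.4 and 68.6 in the mutant add-back and 139.7 to 215.5 in wild type. All 10 ES cell markers were above 1 CPM in every group, with summed levels of 6026 to 7480 CPM in ko and 6279 to 6567 CPM in wild type.

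The start-proximal promoters of 5 of the genes are shown because they carry motifs known for the ER chaperone and amino acid branches of the response. Of the 10 genes, 9 had a promoter in the RefSeq table (GRCm38.p6), and the 250 bases before the start were searched on both strands. The ER stress element (CCAAT, any 9 bases and CCACG), known as a site of ATF6 and NF-Y, was found in Hspa5 (65 to 47 bases before the start) and Dnajc3 (105 to 87 bases before it), against 0.113% of all 32851 promoters. The second form of this element (ATTGG, any 1 base and CCACG) was found in Herpud1 (52 to 42 bases before the start), against 0.0304% of all promoters. The core of the C/EBP-ATF site bound by ATF4 (TGATGNAA) was found in Chac1 (193 to 186 bases before the start, on the opposite strand), Asns (23 to 16) and Herpud1 (112 to 105, on the opposite strand), against 3.45% of all promoters. The XBP1 element TGACGTGG was in 0.563% of all promoters and in 0 of the 9. None of the matches overlapped another, and a match is a run of letters, not a measured binding site. The sequences read 5′ to 3′ towards the gene and their capitals mark these matches; they lie at chr2:34771840-34772089 (Hspa5, plus strand), chr14:118937682-118937931 (Dnajc3, plus strand), chr8:94386179-94386428 (Herpud1, plus strand), chr2:119350992-119351241 (Chac1, plus strand) and chr6:7693210-7693459 (Asns, minus strand).
Hspa5: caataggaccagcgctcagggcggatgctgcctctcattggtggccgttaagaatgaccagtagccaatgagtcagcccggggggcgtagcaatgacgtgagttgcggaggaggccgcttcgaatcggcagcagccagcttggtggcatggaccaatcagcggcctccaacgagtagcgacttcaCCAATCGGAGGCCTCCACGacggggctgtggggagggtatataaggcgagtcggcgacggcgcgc
Dnajc3: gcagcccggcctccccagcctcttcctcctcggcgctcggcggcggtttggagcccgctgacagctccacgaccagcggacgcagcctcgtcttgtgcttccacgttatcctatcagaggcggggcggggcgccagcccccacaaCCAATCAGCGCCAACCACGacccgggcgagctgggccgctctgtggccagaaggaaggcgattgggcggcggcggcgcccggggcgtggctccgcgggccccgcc
Herpud1: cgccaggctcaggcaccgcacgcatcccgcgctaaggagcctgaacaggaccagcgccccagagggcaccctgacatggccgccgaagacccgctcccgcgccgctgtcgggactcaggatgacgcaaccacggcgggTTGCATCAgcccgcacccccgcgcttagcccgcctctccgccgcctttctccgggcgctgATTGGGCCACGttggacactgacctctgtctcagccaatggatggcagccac
Chac1: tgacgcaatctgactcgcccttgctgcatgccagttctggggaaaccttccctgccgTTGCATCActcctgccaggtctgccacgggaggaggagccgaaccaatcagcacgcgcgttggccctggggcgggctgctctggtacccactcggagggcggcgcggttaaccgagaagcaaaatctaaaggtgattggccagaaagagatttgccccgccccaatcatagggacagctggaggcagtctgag
Asns: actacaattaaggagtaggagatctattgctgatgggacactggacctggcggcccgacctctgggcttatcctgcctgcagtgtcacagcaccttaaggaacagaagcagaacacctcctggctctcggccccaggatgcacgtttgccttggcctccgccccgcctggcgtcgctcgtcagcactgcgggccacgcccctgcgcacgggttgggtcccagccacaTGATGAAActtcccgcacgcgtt

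Per exonic length, Hspa5 mRNA was the most abundant of the 10 in every group, and Asns and Atf4 came next with overlapping libraries. In ko cells the mean levels were 349.6 RPKM for Hspa5, 222 for Atf4 and 212 for Asns, against 301 for Hspa5, 144 for Atf4 and 167 for Asns in wild type. Xbp1 followed at 34.1 RPKM in ko and 27.9 in wild type, and Trib3 at 31.7 in ko and 20.2 in wild type. The other 5 genes lay between 16.4 and 20.9 RPKM in ko, and between 10.9 and 15.2 RPKM in wild type, with overlapping libraries between neighbours in this order.

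**Figure D1:**
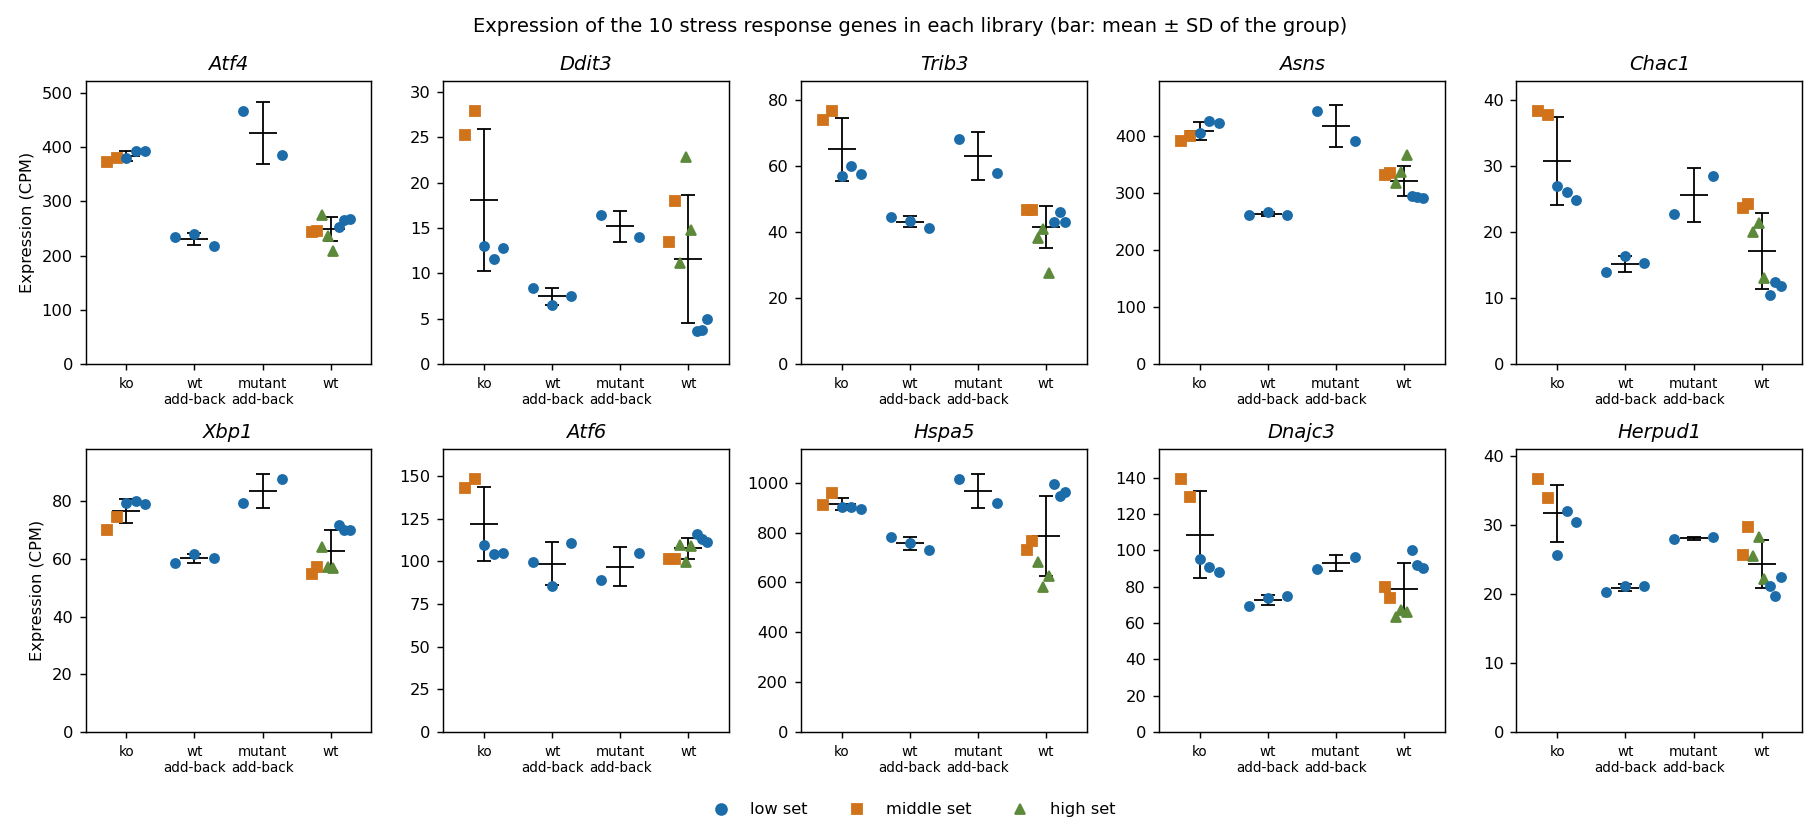
Expression of the 10 genes in CPM, 1 panel per gene and 1 point per library, with symbols for the low, middle and high library sets and bars for the mean ± SD of ko, wild-type add-back, mutant add-back and wild type. The ko libraries of Atf4 sit between 372 and 393 CPM, all above the wild-type libraries at 208 to 274 CPM, while the ko libraries of Atf6 and Dnajc3 split by set.

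With the sets pooled, ko cells had more mRNA of Atf4, its targets Trib3, Asns and Chac1, and Xbp1, Dnajc3 and Herpud1 than wild-type cells. Of these, Dnajc3 rose in the middle set (0.81 ± 0.07) but did not pass the test in the low set (-0.04 ± 0.06). The pooled wild-type libraries include the high set, which held no ko library. Over all libraries 7 of the 10 genes rose in ko against wild type, none fell, and their log2 changes had a median of 0.42. Of all genes tested, 26.8% were called higher in this comparison, 28.2% lower and 55.0% in either direction, with a median of -0.01. When libraries were summed within each group and set before the test, 2 of the 10 were called higher, Atf4 and Trib3. Of all genes, 1214 were called higher and 1194 lower in that test.

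Atf4, the transcription factor at the centre of the integrated stress response, was at 372, 379, 380.0, 392 and 393 CPM in ko, against 208 to 274 CPM (median 249.6) in wild type. No wild-type library reached the lowest ko library. The change was 1.54-fold (log2 0.62 ± 0.07 (SE), adjusted p = 3.1e-07), and it was 0.57 ± 0.08 in the low and 0.62 ± 0.10 in the middle set, with a difference between the sets of 0.05 ± 0.13 (adjusted p = 0.80).

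Trib3, a pseudokinase that is induced by ATF4 and CHOP, had 57.0, 57.3, 60.0, 73.9 and 76.4 CPM in ko, against 27.6 to 46.7 CPM (median 43.0) in wild type. Every ko library was above every wild-type library, and within ko the pair from the middle set was highest. The change was 1.57-fold (0.65 ± 0.11, adjusted p = 7.2e-05), with 0.40 ± 0.10 in the low and 0.69 ± 0.12 in the middle set (difference 0.28 ± 0.15, adjusted p = 0.18). Asns, the enzyme that makes asparagine, had 391, 399.7, 406, 423 and 426 CPM in ko, against 292 to 367 CPM (median 325) in wild type. The groups did not overlap, with the nearest libraries 391 CPM in ko and 367 in wild type. The change was 1.27-fold (0.35 ± 0.06, adjusted p = 1.0e-04).

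Chac1, which breaks down glutathione and is a target of ATF4, had 24.8, 26.0, 27.0, 37.7 and 38.3 CPM in ko, against 10.4 to 24.3 CPM (median 16.6) in wild type. The groups did not overlap, although the lowest ko library (24.8 CPM, low set) and the highest wild-type library (24.3 CPM, middle set) nearly met. The change over all libraries was 1.79-fold (0.84 ± 0.20, adjusted p = 0.0014). Within the low set it was 1.16 ± 0.14 and within the middle set 0.66 ± 0.15 (difference -0.50 ± 0.21, adjusted p = 0.081).

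Ddit3, which encodes the transcription factor CHOP, did not pass the test over all libraries but rose within both sets. It had 11.6, 12.8, 13.0, 25.3 and 27.9 CPM in ko, against 3.7 to 22.8 CPM (median 12.3) in wild type, and the groups overlapped (0.63 ± 0.37, adjusted p = 0.16). Without the high set it was called (1.03). In the low set ko had 11.6, 12.8 and 13.0 CPM, against 3.7, 3.7 and 5.0 CPM in wild type, a rise of 1.60 ± 0.24 (adjusted p = 1.6e-05). In the middle set ko had 25.3 and 27.9 CPM, against 13.5 and 18.0 CPM in wild type, a rise of 0.75 ± 0.22 (adjusted p = 0.0072), which was lost without wild-type replicate 1 (0.56). The difference between the sets, -0.84 ± 0.33, did not pass (adjusted p = 0.067) but did so without wild-type replicate 1 (-1.04). Exons of Ddit3 overlap Mars, the methionyl-tRNA synthetase gene, on the other strand, and the strand setting of the counting is not given in the sources used here, so reads of the overlap cannot be told apart. Mars averaged 319 CPM in ko and 300.5 CPM in wild type, and its change was 0.09 over all libraries (adjusted p = 0.16), 0.11 in the low and 0.04 in the middle set.

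Of the transcription factors of the ER branches, Xbp1 rose over all libraries and in both sets. It had 70.0, 74.7, 79.0, 79.5 and 80.0 CPM in ko, against 54.7 to 71.9 CPM (median 60.8) in wild type. Its groups overlapped over all libraries (0.29 ± 0.07, adjusted p = 0.0032) and were apart within each set (0.17 ± 0.06 in the low and 0.37 ± 0.07 in the middle set). The call in the low set (adjusted p = 0.020) was lost without ko replicate 3 (0.16) or 4 (0.16) and without wild-type replicate 7 (0.16) or 8 (0.16).

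Atf6, the membrane-bound sensor that is cut to a transcription factor, rose in the middle set and did not pass the test in the low set. In the middle set it had 143 and 148 CPM in ko, against 101 and 102 CPM in wild type (0.52 ± 0.09, adjusted p = 4.6e-05). In the low set it had 105, 105 and 109.7 CPM in ko, against 111, 113 and 116 CPM in wild type, so that the ko libraries lay below (-0.09 ± 0.08, adjusted p = 0.30). The difference between the sets was 0.61 ± 0.12 (adjusted p = 5.1e-04), and over all libraries the change was 0.18 ± 0.09 (adjusted p = 0.0995), which was called without ko replicate 4 (0.24) or 5 (0.24).

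The ER proteins split in the same comparison. Dnajc3 encodes p58IPK, an ER co-chaperone, and had 129 and 139 CPM in ko, against 73.6 and 79.7 CPM in wild type, in the middle set. In the low set it had 88.3, 91.0 and 95.4 CPM in ko, against 90.3, 91.9 and 100.3 CPM in wild type. The ko libraries were above in the middle set (0.81 ± 0.07, adjusted p = 6.6e-09) and overlapped wild type in the low set (-0.04 ± 0.06, adjusted p = 0.58), with a difference of 0.85 ± 0.09 (adjusted p = 7.6e-07). Over all libraries Dnajc3 was called higher in ko (0.46 ± 0.13, adjusted p = 0.0045).

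Hspa5 encodes BiP, the main chaperone of the ER lumen, and had 912 and 958 CPM in ko, against 731 and 767 CPM in wild type, in the middle set. In the low set it had 894, 903 and 904 CPM in ko, against 948, 962 and 994 CPM in wild type. The change was 0.32 ± 0.07 in the middle set (adjusted p = 7.6e-04) and -0.10 ± 0.06 in the low set (adjusted p = 0.14), with a difference of 0.42 ± 0.09 (adjusted p = 0.0020). Fitted on the low-set libraries alone, the value of -0.11 was called lower (adjusted p = 0.041), as were 34.2% of all genes in that fit, against 32.5% called higher. Over all libraries Hspa5 did not pass the test (0.22 ± 0.11, adjusted p = 0.11) unless wild-type replicate 6 (0.27) or 8 (0.26) was left out, and the ko libraries at 894 to 958 CPM lay within the wild-type range of 582 to 994 CPM.

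Herpud1, a membrane protein of ER-associated degradation, had 25.6, 30.4, 32.0, 33.9 and 36.6 CPM in ko, against 19.7 to 29.7 CPM (median 24.0) in wild type. Of the ko libraries, replicate 3 lay inside the wild-type range. The change was 0.38 ± 0.10 over all libraries (adjusted p = 0.0036), 0.47 ± 0.10 in the low set and 0.35 ± 0.11 in the middle set. The call in the middle set was lost without ko replicate 1 (0.30) or wild-type replicate 1 (0.25), and the difference between the sets was -0.13 ± 0.15 (adjusted p = 0.57).

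Counted by set, 7 of the 10 genes rose in ko in the low set and all 10 in the middle set, and none was called lower. The shares of all genes called were 60.1% in the low set and 61.8% in the middle set, with 29.3% higher and 30.8% lower in the low set and 29.9% higher and 31.9% lower in the middle set. The ko effect differed between the sets for 4 genes, against 26.7% of all genes. It was larger in the middle set for Dnajc3, Atf6 and Hspa5 and smaller for Asns, which rose by 0.51 ± 0.06 in the low and 0.24 ± 0.07 in the middle set (difference -0.27 ± 0.09, adjusted p = 0.035). The call for Asns was lost whichever of the 10 libraries was left out (-0.24 to -0.28).

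**Figure D2:**
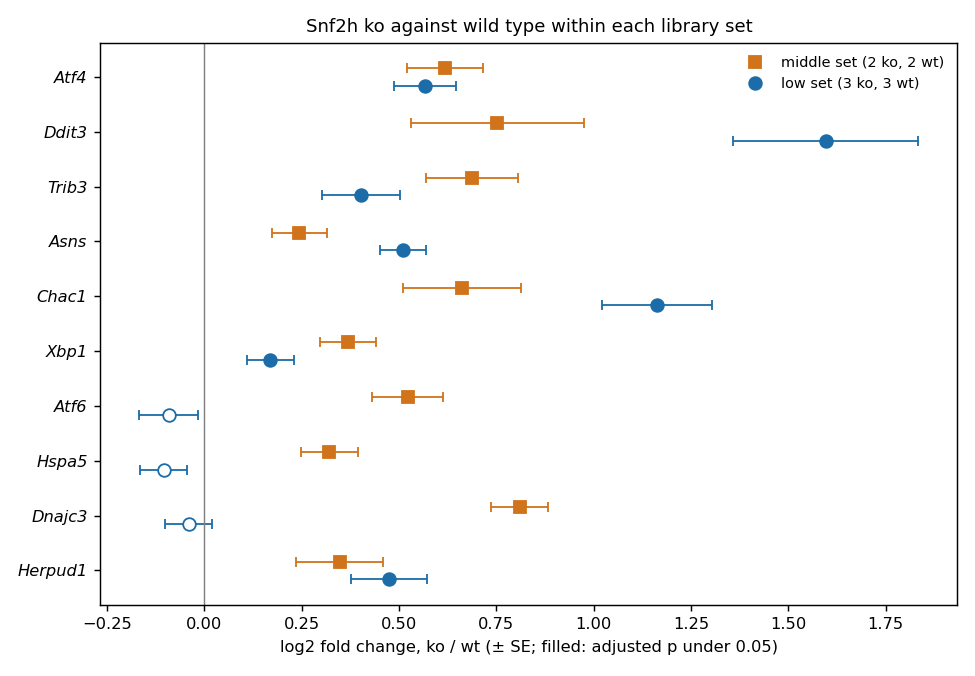
Log2 fold change of ko over wild type (± SE) for each of the 10 genes, with squares for the middle set (2 ko and 2 wild-type libraries) and circles for the low set (3 of each), filled where the adjusted p is under 0.05. Atf4 has nearly the same value in both sets (0.62 and 0.57), while Atf6, Hspa5 and Dnajc3 lie at 0.32 to 0.81 in the middle set and at or below 0 in the low set.

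Markers of other cell types differed between ko and wild type as well. The endoderm markers differed between the sets in the direction of Dnajc3, Atf6 and Hspa5, while most fibroblast markers were higher in ko in both sets. The summed level of 16 extraembryonic endoderm markers was 11244 to 12134 CPM in ko and 2424 to 2563 CPM in wild type in the middle set, and 3248 to 3373 CPM in ko and 4585 to 4637 CPM in wild type in the low set. Of the 14 of these markers that were tested, 14 were higher in ko in the middle set (median 2.33), and in the low set 1 was higher and 12 were lower (median -0.74). The summed level of 20 embryonic fibroblast markers was 4164 to 4366 CPM in ko and 2265 to 2385 CPM in wild type in the middle set, and 2412 to 2420 CPM in ko and 1956 to 1981 CPM in wild type in the low set. Most of this sum was Sparc (1807 CPM in ko and 753 CPM in wild type) and Fn1 (943 CPM in ko and 1464 CPM in wild type), and Lum had 0 counts in ko. Of the 17 fibroblast markers tested, 13 were higher and none lower in ko in the low set (median 2.36), 13 were higher and 3 lower in the middle set (median 1.72), and 12 were higher and 3 lower over all libraries (median 1.73). The part of these cells in the values of the stress genes was not tested, and in bulk RNA a change in the number of cells of a type cannot be told apart from a change of RNA per cell.

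Wild-type libraries also differed between the sets, with no difference in genotype or treatment in the labels. In the middle set 4 of the 10 genes were higher and 3 lower than in the low set, where 43.5% of all genes were called, 21.6% higher and 21.9% lower. Ddit3 had 13.5 and 18.0 CPM in the middle set, 11.2, 14.8 and 22.8 CPM in the high set and 3.7, 3.7 and 5.0 CPM in the low set. That is a rise of 1.94 ± 0.25 in the middle set and 1.99 ± 0.22 in the high set over the low set. Chac1 likewise was higher in both (1.05 ± 0.15 in the middle and 0.65 ± 0.14 in the high set).

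Hspa5, Dnajc3 and Xbp1 went the other way in wild type. Hspa5 had 731 and 767 CPM in the middle set, 582, 628 and 683 CPM in the high set and 948, 962 and 994 CPM in the low set, so that the 3 sets did not overlap. Relative to the low set, its log2 change was -0.37 ± 0.07 in the middle and -0.62 ± 0.06 in the high set, and that of Dnajc3 was -0.30 ± 0.07 in the middle and -0.52 ± 0.06 in the high set. Of the 14 endoderm markers tested, 13 were lower and 1 higher than in the low set both in the middle set (median -1.50) and in the high set (median -1.08), with sums of 2424 to 2563 CPM in the middle, 2310 to 3651 CPM in the high and 4585 to 4637 CPM in the low set. Their part in these values was not tested. Xbp1 was lower in both sets too (-0.34 ± 0.07 and -0.25 ± 0.06). Atf4 did not pass the test in either (-0.10 ± 0.09 and -0.13 ± 0.08), although without wild-type replicate 3 the value in the high set was called (-0.24). In the high set 4 genes were higher and 4 lower than in the low set, where 53.9% of all genes were called, 27.3% higher and 26.6% lower. In the middle set the call of Asns (0.18 ± 0.06) was lost whichever of the 5 libraries was left out (0.18 to 0.19), and that of Herpud1 (0.39 ± 0.11) without wild-type replicate 2 (0.28). In the high set the call of Herpud1 (0.26 ± 0.10) was lost without replicate 4 (0.18), 6 (0.26) or 7 (0.22) and that of Trib3 (-0.31 ± 0.10) without replicate 5 (-0.16) or 7 (-0.27).

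Ko cells with wild-type Snf2h returned had less mRNA of most of these genes than ko cells. Of the 10 genes 8 fell and none rose relative to ko, where 22.4% of all genes were called lower, 22.5% higher and 45.0% in either direction. The median log2 change of the 10 was -0.60 and that of all genes -0.01. This comparison shares its ko libraries with that of ko against wild type, so the values of the comparisons are not independent. With libraries summed per group and set, 0 of the 10 were called in it, where 440 of all genes were called higher and 283 lower.

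Atf4 had 218, 235 and 239.7 CPM in the wild-type add-back, against 372 to 393 CPM in the 5 ko libraries. The add-back libraries lay below all ko libraries, 1.66-fold lower on average (-0.73 ± 0.09, adjusted p = 2.8e-06). Asns had 261, 262 and 267 CPM in the add-back, against 391 to 426 CPM in ko (-0.64 ± 0.08, adjusted p = 5.2e-06). Chac1 had 13.9, 15.4 and 16.4 CPM in the add-back, against 24.8 to 38.3 CPM in ko (-1.02 ± 0.27, adjusted p = 0.0046). In each of these genes the groups were apart.

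Trib3 (-0.59 ± 0.15, adjusted p = 0.0030) and Herpud1 (-0.60 ± 0.13, adjusted p = 0.0013) fell as well. Dnajc3 had 69.7, 73.7 and 74.9 CPM in the add-back, against 88.3 to 139 CPM in ko (-0.58 ± 0.17, adjusted p = 0.0087), and Xbp1 58.6, 60.4 and 61.6 CPM, against 70.0 to 80.0 CPM in ko (-0.35 ± 0.10, adjusted p = 0.0074). The call of Atf6 (-0.31 ± 0.12, adjusted p = 0.044) was lost without ko replicate 1 (-0.25) or 2 (-0.23) and without add-back replicate 1 (-0.31) or 2 (-0.22). Ddit3 had 6.6, 7.5 and 8.4 CPM in the add-back, all below the ko libraries, but with its spread between sets it did not pass (-1.28 ± 0.53, adjusted p = 0.055). It was called when ko replicate 3 (-1.38), 4 (-1.41) or 5 (-1.38) was left out. Hspa5 had 730.3, 756 and 782 CPM in the add-back, also below all ko libraries, and did not pass (-0.27 ± 0.15, adjusted p = 0.13).

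All add-back libraries are in the low set, and against the low-set ko libraries alone 9 of the 10 genes fell, Ddit3 (-0.73 ± 0.12) and Hspa5 (-0.25 ± 0.04) among them, while 64.9% of all genes were called in that fit, 31.9% lower and 33.1% higher. Atf6 did not pass there (-0.11 ± 0.08, adjusted p = 0.23). Dnajc3 fell in it (-0.33 ± 0.06). The endoderm markers summed to 3582 to 3865 CPM in the wild-type add-back and 3248 to 3373 CPM in low-set ko, and the fibroblast markers to 2074 to 2340 CPM in the add-back and 2412 to 2420 CPM in low-set ko. By gene, markers were counted over all libraries, which include the middle-set ko libraries with endoderm sums of 11244 to 12134 CPM. There 12 of the 17 fibroblast markers tested were lower in the wild-type add-back than in ko and none was higher (median -1.97). Of the 14 endoderm markers 4 were lower and none higher (median -0.82), with 0 higher in either list by DESeq2 or at an unadjusted p under 0.05. Of all genes, 22.4% were called lower and 22.5% higher over all libraries. The part of these markers in the values was not tested.

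Re-expression of the ATPase mutant gave no called change in the 10 genes. With 2 mutant libraries, edgeR called 0 of the 10 against ko, where it called 0.322% of all genes. At an unadjusted p under 0.05 there was 1 of the 10 (Atf6), beside 2286 of the 14901 genes tested. DESeq2 called 0 of the 10 and 337 of all genes. Atf4 had 385 and 465.6 CPM in the mutant add-back, against 372 to 393 CPM in ko (0.15 ± 0.10, 95% interval -0.05 to 0.35). Asns had 392 and 443 CPM, against 391 to 426 CPM in ko (0.03 ± 0.09, interval -0.16 to 0.22). Xbp1 had 79.4 and 87.6 CPM, against 70.0 to 80.0 CPM in ko (0.12 ± 0.11, interval -0.11 to 0.35), and Trib3 57.9 and 68.2 CPM, against 57.0 to 76.4 CPM in ko (-0.04 ± 0.16, interval -0.39 to 0.30). The intervals of Chac1 (-0.89 to 0.35) and Ddit3 (-1.45 to 0.93) were wide, so these values do not show that the mutant add-back and ko were alike.

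Within the low set no gene of the 10 was called either, while 25.4% of all genes were, and the interval for Atf4 was -0.01 to 0.27, for Asns -0.11 to 0.11 and for Chac1 -0.22 to 0.18. The chi-square per gene between replicates was 13.4 for the mutant and 2.04 to 6.41 for the wild-type add-back. In the mutant libraries the endoderm markers summed to 5386 to 5456 CPM and the fibroblast markers to 2521 to 2843 CPM. Of the 17 fibroblast markers tested, 0 were higher and 1 was lower in the mutant add-back than in ko (median -0.23; 3 higher at an unadjusted p under 0.05 and 0 by DESeq2), and the part of these markers in the values was not tested.

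**Figure D3:**
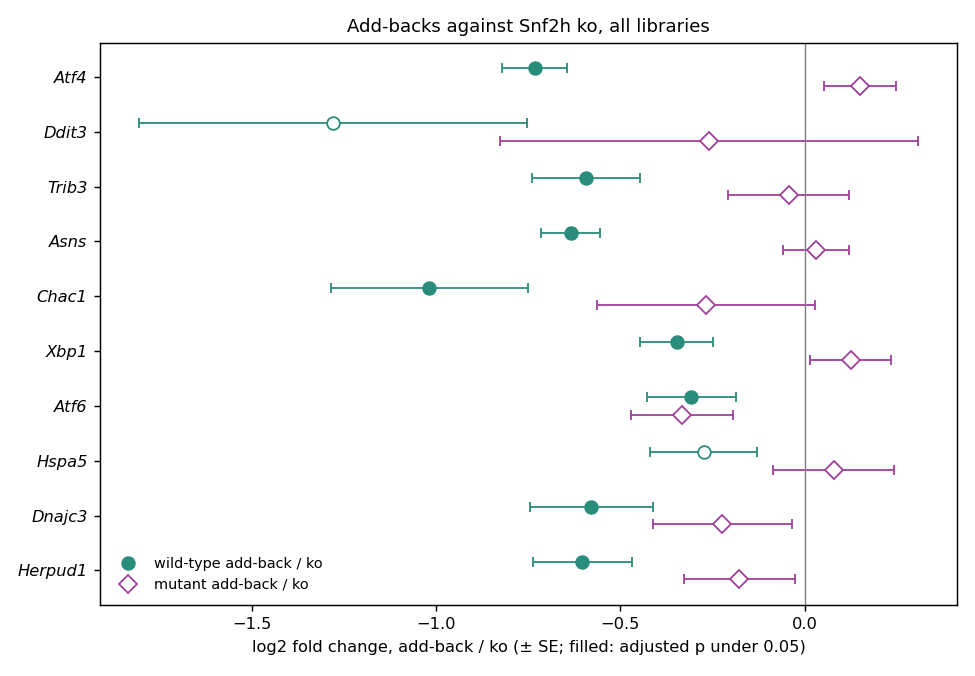
Log2 fold change over ko (± SE) of the wild-type add-back (circles) and the mutant add-back (diamonds) for the 10 genes, filled where the adjusted p is under 0.05. The wild-type add-back lies below 0 for all 10 genes (-0.27 to -1.28), and no value of the mutant add-back is filled.

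The direct comparison of the add-backs gave 5 genes lower in the wild-type than in the mutant add-back and none higher, where 18.4% of all genes were called lower, 18.6% higher and 37.0% in either direction. Atf4 had 218 to 239.7 CPM in the wild-type add-back and 385 and 465.6 CPM in the mutant add-back (-0.88 ± 0.11). The other log2 changes were -0.67 ± 0.10 for Asns, -0.55 ± 0.18 for Trib3, -0.47 ± 0.12 for Xbp1 and -0.43 ± 0.16 for Herpud1. The call of Herpud1 was lost without any 1 of the 5 libraries (-0.40 to -0.44), that of Trib3 without mutant replicate 1 (-0.41) or wild-type add-back replicate 3 (-0.52), and that of Xbp1 without mutant replicate 3 (-0.38). Fitted on the low set alone, 9 of the 10 were lower, all but Atf6 (0.03 ± 0.09), where 67.3% of all genes were called, 33.8% lower and 33.4% higher. Of the 17 fibroblast markers, 14 were lower and 1 higher in the wild-type than in the mutant add-back over all libraries (median -2.26), and their part in the values was not tested. With libraries summed per group and set, 0 of the 10 were called, where 150 of all genes were called higher and 83 lower. The add-backs also differed in feeder history and in Smarca5 mRNA, with 83.8 to 90.2 CPM in the wild-type and 48.4 and 68.6 CPM in the mutant add-back (0.56 ± 0.17, adjusted p = 0.018). The part of each cannot be told apart from that of the mutation.

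The add-back of wild-type Snf2h gave, set against wild-type cells, 0 calls among the 10 genes over all libraries with edgeR, which called 1.60% of all genes. At an unadjusted p under 0.05 there was 1 of the 10, beside 2266 of the 14901 genes tested. DESeq2 called 1 of the 10, Asns, and 481 of all genes. Asns had 261, 262 and 267 CPM in the add-back, below the wild-type range of 292 to 367 CPM (-0.29 ± 0.07, adjusted p = 0.059), and was called without wild-type replicate 6, 7 or 8 (-0.30 to -0.31). Within the low set 7 of the 10 genes differed, where 33.0% of all genes were called. Hspa5 (-0.35 ± 0.04), Dnajc3 (-0.37 ± 0.06), Xbp1 (-0.23 ± 0.05), Atf4 (-0.18 ± 0.06) and Asns (-0.16 ± 0.05) were lower in the wild-type add-back than in low-set wild type, and Ddit3 (0.86 ± 0.14) and Chac1 (0.40 ± 0.10) were higher.

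In the mutant add-back 4 of the 10 genes were higher than in wild type over all libraries and none was lower, where 22.1% of all genes were called higher, 23.5% lower and 45.5% in either direction. They were Atf4 (0.77 ± 0.09), Trib3 (0.61 ± 0.15), Xbp1 (0.41 ± 0.10) and Asns (0.38 ± 0.08). Without mutant replicate 1 the calls of Trib3 (0.48) and Asns (0.28) were lost, and without mutant replicate 3 that of Xbp1 (0.33), while Chac1 (0.57 ± 0.27, adjusted p = 0.090) was called without wild-type replicate 2 (0.66). Against low-set wild type alone 7 were higher, with Ddit3 (1.88 ± 0.13), Chac1 (1.14 ± 0.11) and Herpud1 (0.41 ± 0.09) added, and Atf6 was lower (-0.23 ± 0.08), where 66.6% of all genes were called, 33.5% higher and 33.2% lower. Of the 17 fibroblast markers, 14 were higher and 3 lower in the mutant add-back than in wild type over all libraries (median 1.49), and their part in the values was not tested. With libraries summed per group and set, 1 of the 10 was called, where 621 of all genes were called higher and 649 lower.

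Other genes of the integrated stress response moved in both directions. Of 24 further ATF4 and CHOP targets, 8 rose and 2 fell in ko over all libraries (median 0.27), 14 rose and 3 fell in the low set (median 0.52), and 10 rose and 3 fell in the middle set (median 0.36). Of all genes, 26.8% were higher and 28.2% lower in ko over all libraries, 29.3% higher and 30.8% lower in the low set, and 29.9% higher and 31.9% lower in the middle set, and the counts of this and the following lists stand beside these shares. Pck2, the mitochondrial form of the enzyme that makes phosphoenolpyruvate, averaged 172 ± 22.1 CPM in ko and 72.5 ± 9.02 CPM in wild type (SD, n = 5 and 8; 1.24 ± 0.09, adjusted p = 1.8e-09). Atf5, a transcription factor related to ATF4, averaged 33.2 ± 7.21 CPM in ko and 14.7 ± 1.99 CPM in wild type (1.17 ± 0.12), with 1.57 ± 0.09 in the low and 0.59 ± 0.10 in the middle set (difference -0.98 ± 0.13, adjusted p = 1.3e-05). The glutamine carrier gene Slc1a5 averaged 143 ± 4.12 CPM in ko and 89.9 ± 8.43 CPM in wild type (0.67 ± 0.06). Slc38a2, another amino acid carrier gene, fell, with 260.4 ± 22.0 CPM in ko and 407 ± 20.7 CPM in wild type (-0.65 ± 0.07). By set, low first and then middle, Pck2 had 1.21 and 1.24, Slc1a5 0.62 and 0.73 and Slc38a2 -0.73 and -0.59. With wild-type Snf2h returned, 7 of the 24 fell and 2 rose relative to ko, where 22.4% of all genes were called lower and 22.5% higher. In the mutant add-back none of the 24 was called against ko by edgeR or DESeq2, with 1 at an unadjusted p under 0.05. There edgeR called 0.322% of all genes and DESeq2 337 genes, and 2286 of the 14901 tested had an unadjusted p under 0.05.

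Among 13 sensors and regulators, 5 rose and 1 fell in ko over all libraries (median 0.16), beside 26.8% higher and 28.2% lower of all genes. By set, 5 rose and 3 fell in the low set (median 0.11), and 5 rose and 3 fell in the middle set (median 0.12). Ppp1r15a (GADD34), which returns the phosphatase to eIF2 and closes the response, had 74.4 to 81.0 CPM in ko, against 45.1 to 61.4 CPM in wild type (0.60 ± 0.08), 0.76 ± 0.07 in the low and 0.64 ± 0.09 in the middle set. Its constitutive relative Ppp1r15b rose by 0.43 ± 0.08, Eif2ak3, which encodes PERK, by 0.43 ± 0.09, and Atf6b, a relative of Atf6, by 0.29 ± 0.09. In the low and the middle set Ppp1r15b had 0.30 and 0.32, Eif2ak3 0.46 and 0.56, and Atf6b 0.32 and 0.26. Ppp1r15a and Eif2ak3 fell with wild-type Snf2h returned, relative to ko (-0.72 ± 0.10 and -0.51 ± 0.11), while Ppp1r15b (-0.24 ± 0.10) and Atf6b (-0.26 ± 0.11) did not pass the test.

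Amino acid enzymes were mixed, beside 26.8% higher and 28.2% lower of all genes. Of 12 enzymes of serine, one-carbon and related amino acid metabolism 5 rose and 3 fell in ko (median 0.24), with Cbs (0.66 ± 0.09), Aldh18a1 (0.52 ± 0.10) and Mthfd2 (0.51 ± 0.08) higher and Mthfd1l lower (-0.71 ± 0.07). Cbs rose by 0.43 ± 0.07 in the low and 0.96 ± 0.08 in the middle set (difference 0.52 ± 0.11, adjusted p = 0.0011), and Mthfd1l had -0.50 ± 0.05 in the low and -0.98 ± 0.06 in the middle set (difference -0.48 ± 0.08, adjusted p = 1.3e-04). The low set had 8 higher and 3 lower, the middle set 5 higher and 5 lower. Of 18 aminoacyl-tRNA synthetases 3 rose and 5 fell (median -0.05), with Aars (0.36 ± 0.07) and Qars (0.29 ± 0.06) higher and Kars (-0.43 ± 0.08) and Rars (-0.34 ± 0.07) lower. By set, 7 rose and 6 fell in the low and 2 rose and 9 fell in the middle set, and Aars had 0.57 ± 0.05 in the low and 0.23 ± 0.06 in the middle set (difference -0.35 ± 0.08, adjusted p = 0.0040).

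The ER chaperones split by set as Hspa5 and Dnajc3 did. Of 20 other ER chaperones and folding enzymes 18 rose in ko in the middle set and none fell (median 0.54). By DESeq2 and at an unadjusted p under 0.05 the number lower in the middle set was likewise 0. In the low set 2 rose and 2 fell (median -0.03). The ko effect was larger in the middle set for 14 of the 20. Of all genes, 13.2% had a higher and 13.6% a lower ko effect in the middle than in the low set. Calr, a calcium-binding lectin chaperone, rose by 0.78 ± 0.06 in the middle set and had 0.10 ± 0.05 in the low set (adjusted p = 0.12). Pdia6, a disulfide isomerase, rose by 0.53 ± 0.07 in the middle set and had -0.01 ± 0.06 in the low set (adjusted p = 0.85). Sdf2l1 (0.99 ± 0.09 and 0.64 ± 0.07) and the oxidoreductase gene Ero1lb (0.81 ± 0.16 and 1.11 ± 0.14) rose in the middle and in the low set. Over all libraries 9 of the 20 rose and none fell (median 0.24, with 0 lower by DESeq2 or at an unadjusted p under 0.05). The endoderm marker sums given above also differed between the sets, and the fibroblast markers were mostly higher in ko in both sets. The part of either list of markers in the chaperone values was not tested.

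With wild-type Snf2h returned, 7 of these 20 chaperones fell and none rose relative to ko, where 22.4% of all genes were called lower and 22.5% higher. Against the mutant add-back 10 fell and none rose, where 18.4% of all genes were called lower and 18.6% higher. Of 20 genes of ER-associated degradation and translocation 7 rose and 1 fell in ko over all libraries (median 0.16), 5 rose and 3 fell in the low set and 9 rose and 1 fell in the middle set, beside 26.8% higher and 28.2% lower of all genes over all libraries. The 4 named from this list, Edem1 (0.63 ± 0.11), Os9 (0.58 ± 0.09), Edem2 (0.52 ± 0.08) and Sel1l (0.43 ± 0.07), which select misfolded glycoproteins for degradation or anchor the ubiquitin ligase that tags them, were higher in both sets. The rise was larger in the middle than in the low set for Edem1 (0.77 and 0.34, adjusted p of the difference 0.0012) and Sel1l (0.60 and 0.24, adjusted p of the difference 0.0059).

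The heat shock genes, mostly of cytosolic proteins and answering largely to HSF1 rather than to the ER sensors, gave 4 higher and 1 lower of 13 in ko over all libraries (median -0.07), beside 26.8% higher and 28.2% lower of all genes. By set, 5 rose and 7 fell in the low set (median -0.13), beside 29.3% higher and 30.8% lower of all genes. In the middle set 5 rose and 6 fell (median -0.20), beside 29.9% higher and 31.9% lower of all genes. Hspa1a (1.34 ± 0.17) and Hspa1b (1.46 ± 0.21) rose, but they are near-identical copies between which reads may have been split, so their separate values are uncertain. Hspa1b had 0.89 in the middle and 1.46 in the low set (adjusted p of the difference 0.021). Hsp90ab1 fell (-0.36 ± 0.08), with -0.45 in the middle and -0.16 in the low set (adjusted p of the difference 0.030). Dnajb1 rose over all libraries (0.32 ± 0.12) through the low set (0.45 ± 0.06 against -0.02 ± 0.07 in the middle set), a call lost without wild-type replicate 2 (0.29) or ko replicate 3 (0.26), 4 (0.25) or 5 (0.24).

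**Figure D4:**
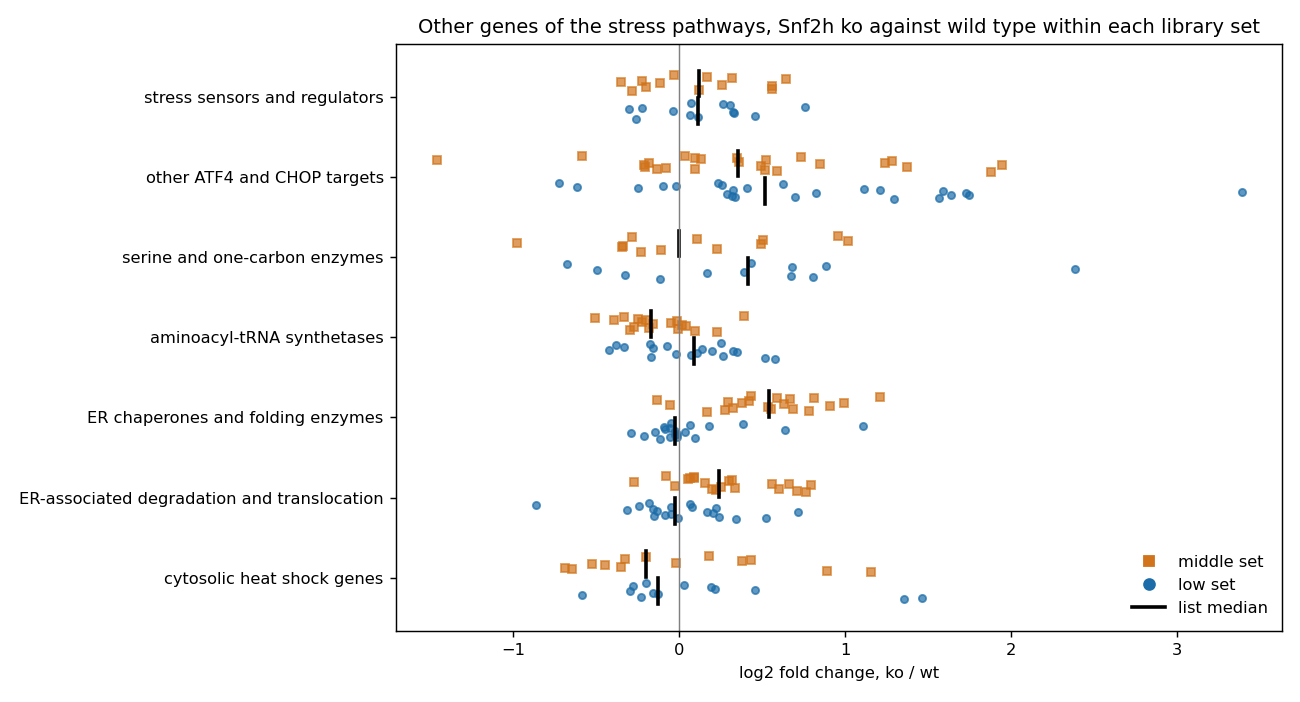
Log2 fold change of ko over wild type for each tested gene of 7 further lists of the stress pathways, with squares for the middle set, circles for the low set and a black bar at the median of each list and set. The medians of the ER chaperones are 0.54 in the middle set and -0.03 in the low set, while those of the ATF4 and CHOP targets are 0.36 and 0.52.

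Across the 18 libraries the log2 levels of the 10 genes went together in part. Pearson's r, given as a description of libraries that share groups and sets, was 0.91 for Chac1 and Herpud1, 0.87 for Atf4 and Xbp1, 0.87 for Atf4 and Trib3 and -0.24 for Ddit3 and Hspa5. With levels centred on the mean of each library set, r was 0.87, 0.91, 0.93 and 0.08 in the same order. The 3 tested genes with the pattern most like that of Ddit3 were Drc3 (r = 0.98), Palm (0.97) and Wipi1 (0.96), the last of which encodes an autophagy protein. For Hspa5 they were the glutathione peroxidase gene Gpx1 (0.96), Ptdss1 (0.94), which makes phosphatidylserine, and Gabarapl2 (0.94), each over the same 18 libraries.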

How the data were processed

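RNA was measured in 18 libraries, and the authors deposited a table of raw counts for each gene and library. Per the labels' protocols, stranded TruSeq libraries were made from polyadenylated RNA, and per the submitters' processing notes bcl2fastq 2.17 and STAR were used with mm10 (GRCm38). How reads were counted, with which annotation and strand option, is not given in the sources used here. The exonic lengths used for RPKM come from the deposited table and gene positions from RefSeq (GRCm38.p6).

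Counts were tested with edgeR 4.0.16 in R 4.3.3 (two-sided robust quasi-likelihood test, TMM, filterByExpr with a minimum count of 10). The comparisons between groups used 1 mean per group, and those within or between library sets 1 mean per group and set, which the labels do not give. P-values were adjusted by Benjamini-Hochberg over the 14901 genes tested, and genes were called at an adjusted p under 0.05. Values after ± are SE for log2 changes and SD for levels; intervals are 95%. The common biological coefficient of variation was 0.169 between libraries of a group and 0.0731 within group and set. CPM uses TMM-scaled totals, and log2 CPM a prior count of 2. The pipeline was tested on simulated data, and DESeq2 1.42.0, other scalings, no filter, a set term, sums per set, single sets, a replicate block and left-out libraries were tried.

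Genes named beside the 10 are Smarca5, Mars for its overlap with Ddit3, the 4 of each list with the smallest adjusted p in ko against wild type, and the 3 most similar to Ddit3 and to Hspa5. The fibroblast genes named singly were chosen after their values were seen. The 10 genes and all lists were chosen with earlier results of these data known.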

Additional observations from a re-analysis of the deposited data

Results flagged for a closer look

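Within ko, Hspa5 in replicate 2 stood apart at 958 CPM from the other 4 ko libraries at 894 to 912 CPM. Within wild type, Trib3 in replicate 5 stood apart at 27.6 CPM from the other 7 libraries at 38.2 to 46.7 CPM. Chance alone sets a library apart in this way in about 1 of 20 groups.

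The ko effect differed between the middle and the low set in 4 of the 10 genes by the test of that difference, middle minus low, in log2 units. It was 0.85 ± 0.09 for Dnajc3, 0.61 ± 0.12 for Atf6, 0.42 ± 0.09 for Hspa5 and -0.27 ± 0.09 for Asns. Of all genes tested, 26.7% differed between the sets. The sets differ in depth, and the ko effect on the endoderm markers differed between them too (the difference, middle minus low, was higher for 13 of 14 markers, median 3.03), and the part of each in these values was not tested.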

How the results depend on the processing

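Of 2217 values of single genes under all alternatives, 2034 kept their direction and side of the threshold, 92 lost a call, 58 gained one and 33 changed sign. The causes of the changes were not tested, except that summing leaves fewer samples.

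With library size alone, Atf6 was -0.026 between the add-backs (wild-type over mutant) and Dnajc3 0.033 in ko in the low set. DESeq2 called 337 genes in the mutant add-back against ko, and 481 genes and 1 of the 10 with wild-type Snf2h added back, set against wild type.

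With a set term, 480 genes were called in the mutant add-back against ko, where Ddit3 was 0.45, Trib3 0.059 and Chac1 0.078. Against wild type, in the wild-type add-back, 1532 genes and 1 of the 10 were called, with Ddit3 at 0.62 and Chac1 at 0.27. Of the 10, 8 were called lower in the wild-type than in the mutant add-back, and 7 higher in the mutant add-back than in wild type. Without the set term, 5 of the 10 and 37.0% of all genes were called between the add-backs. In the mutant add-back against wild type they were 4 of the 10 and 45.5% of all genes. These shares belong to the fit without the term, and those with it are not given here.

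With libraries summed per group and set, the calls were 2408 genes and 2 of the 10 in ko against wild type, 723 and 0 in the wild-type add-back against ko, 2 genes in the mutant add-back against ko, 233 and 0 between the add-backs, 3 genes in the wild-type add-back and 1270 genes and 1 of the 10 in the mutant add-back against wild type.

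With the low set only, ko against wild type gave Hspa5 -0.11, Dnajc3 -0.042, Atf6 -0.093 and Pdia6 -0.015. The mutant add-back against ko gave 3685 genes, Ddit3 0.29, Trib3 0.12, Asns -0.0025 and Dnajc3 0.025. The wild-type add-back gave 9744 genes and 9 of the 10 against the mutant add-back, and 4786 genes and 7 of the 10, with Ddit3 0.86, Trib3 -0.028 and Chac1 0.40, against wild type. The mutant add-back against wild type gave 8 of the 10, with Hspa5 -0.0048 and Dnajc3 -0.017. Against ko, the wild-type add-back had 9 of the 10.

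Of 17 pairs of same-numbered libraries of different groups, 4 had a correlation over 0.1 between their deviations from the group mean (-0.25 to 0.17). These deviations include the differences between library sets, so the values do not settle whether the numbers pair the libraries. With the replicate block, 15172 genes were tested. Of the 10, 8 were called in ko against wild type, where 8200 genes (54.0%) were called in all, and 8 between the add-backs, where 5884 (38.8%) were. In the wild-type add-back against ko 10 were called, where 6935 genes (45.7%) were, and in the mutant add-back against ko 0. Under the block the wild-type add-back gave 1000 genes and 2 of the 10 relative to wild type, with Hspa5 0.10 and Xbp1 0.066, and Ddit3 was -0.031 in the mutant add-back against wild type.

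With single libraries left out, calls ranged over 7425 to 8246 genes and 7 to 8 of the 10 in ko against wild type, 5271 to 6519 and 7 to 9 in the wild-type add-back against ko, 4 to 143 and 0 in the mutant add-back against ko, 3014 to 4684 and 3 to 4 between the add-backs, 44 to 260 and 0 to 1 in the wild-type add-back relative to wild type, and 3675 to 6912 and 2 to 5 in the mutant add-back against wild type, the 3675 without mutant replicate 1. In wild type, middle against low set, 4280 to 5563 genes were called, the 4280 without replicate 2. Values that changed sign ranged from -0.070 to 0.11 (Asns), -0.0025 to 0.27 (Atf4), -0.0044 to 0.14 (Hspa5) and -0.18 to 0.057 (Trib3) in the mutant add-back against ko, -0.077 to 0.16 (Atf6) between the add-backs, -0.013 to 0.084 (Trib3) in the wild-type add-back relative to wild type and -0.079 to 0.0065 (Dnajc3) in ko in the low set.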
